A study of Homo sapiens with 4 samples.

Results

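Of 5326 regions scored for binding of HNF4A, a liver transcription factor of the nuclear receptor family, 6 lay closest to AXIN2, BCL9L, TCF7L2 or MYC, 4 genes of the Wnt signalling pathway. AXIN2 and BCL9L had 2 regions each, and TCF7L2 and MYC had 1 each. The 6 regions were chosen by the gene that the authors list as closest, with their ratios in these same tables already known. Their values are therefore a description, with no test.

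The cells were HCCLM3, an established human hepatocellular carcinoma line. The 4 groups were HNF4A at high glucose, IgG at high glucose, HNF4A at low glucose and IgG at low glucose, with 1 chromatin immunoprecipitation sequencing (ChIP-seq) library each. HNF4A libraries hold DNA recovered with an antibody to the protein, and IgG libraries give the background of a nonspecific antibody. Per the labels' protocols, overexpression lines were made by lentiviral transduction of a full-length cDNA in a CMV vector, but the labels name neither the cDNA nor the library it belongs to. The culture protocol is the same for all 4 libraries and names a high glucose medium, and the glucose concentrations are not given. ChIP reads do not measure expression, so the liver identity of the line was not checked against marker genes here.

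In the canonical Wnt pathway, a destruction complex built on AXIN proteins marks beta-catenin for degradation until a Wnt ligand binds its receptors. Beta-catenin then enters the nucleus, binds TCF/LEF factors such as TCF7L2, and recruits BCL9 proteins as coactivators. AXIN2 and MYC are widely used target genes of that step. In liver the pathway sets gene expression around the central vein, beta-catenin is often mutated in hepatocellular carcinoma, and in mouse liver HNF4A and Wnt signalling have opposing effects on zonation.

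Reads behind each value were recovered from the authors' log2 levels. Below, enrichment is the log2 ratio of HNF4A over IgG reads at 1 glucose level, and the glucose ratio is the log2 ratio of high over low glucose for 1 antibody, both after scaling by library size. Brackets hold the exact 95% counting interval (Clopper-Pearson). Such intervals cover counting error only and hold no replicate error. Levels per length are scaled reads per kb of region, with HNF4A at low glucose as the unit library. Coordinates are hg19, counted from 1. Over all regions the median level was 41.7 scaled reads per kb for HNF4A and 25.1 for IgG at high glucose, and 33.1 for HNF4A and 17.0 for IgG at low glucose. Over all regions the median enrichment was 0.79 at high and 0.94 at low glucose, and the median glucose ratio was 0.36 for HNF4A and 0.51 for IgG. Values below are to be read against these medians.

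HNF4A exceeded IgG in all 6 regions at both glucose levels, and 3 of the 6 were at least 2-fold above IgG at both, namely TCF7L2, the second BCL9L region and the first AXIN2 region. Of all regions, 31.4% met that double limit. At high glucose 5 of 6 regions were at least 2-fold above IgG, against 41.6% of all regions, and the exception was the first BCL9L region. Relative to the median of all regions, 2 of 6 were, and the share of all regions at that centred limit was not counted. At low glucose 3 of 6 were at least 2-fold above IgG, against 46.8% of all regions. The counting interval lay above 0 in 6 of 6 regions at high glucose, against 55.2% of all regions, and in 5 of 6 at low glucose, against 56.2%. Enrichment above 0 is itself common here, with 84.2% of all regions at high glucose, against 91.5% at low glucose. The members' median enrichment was 1.67 at high glucose, where all 6 lay above the median of all regions. At low glucose their median was 1.19, and 4 of 6 lay above the median of all regions. AXIN2 region 2 and BCL9L region 1 were the exceptions, at -0.11 and -0.04 relative to that median.

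The level behind those values differed between antibodies. IgG was below the median of all regions in all 6 at both glucose levels, from 12.3 to 22.0 scaled reads per kb at high glucose and from 5.16 to 16.1 at low glucose. HNF4A was above the median of all regions in 5 of 6 at high glucose, from 39.9 to 82.3 scaled reads per kb. At low glucose it was above in 2 of 6, from 26.7 to 62.4. In 4 of the 6 regions the enrichment at low glucose therefore went with an HNF4A level below that of the median region and a low IgG level.

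**Figure D1:**
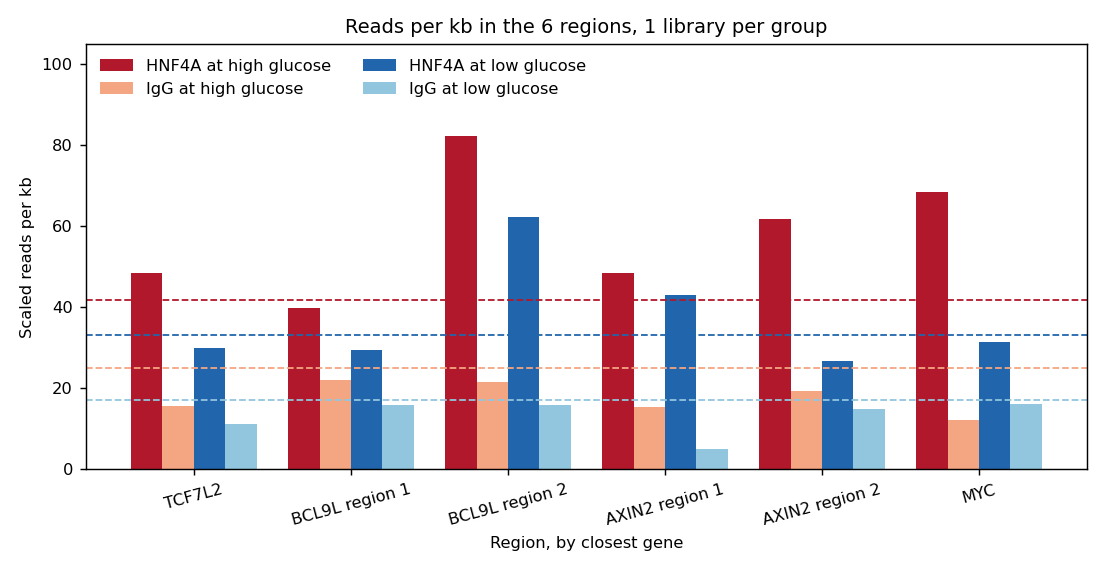
Bars give scaled reads per kb in each of the 4 libraries for the 6 regions, and dashed lines in the same colours give the median of all 5326 regions in that library. BCL9L region 2 had the highest HNF4A level of the 6 at both glucose levels, at 82.3 and 62.4, and every IgG bar was below its own dashed line.

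TCF7L2 encodes the TCF/LEF factor that carries beta-catenin to DNA, and common variants in it are linked to type 2 diabetes. Its region lay on chromosome 10 from 114833213 to 114834111 and was 899 bp long. It held 48 HNF4A and 14 IgG reads at high glucose, and 27 HNF4A and 10 IgG reads at low glucose. HNF4A was thus above IgG at both levels, and each antibody had more reads at high glucose. Enrichment was 1.63 (0.75 to 2.61) at high glucose, against 1.41 (0.31 to 2.62) at low glucose. The glucose ratio was 0.69 (-0.01 to 1.43) for HNF4A, beside 0.47 (-0.81 to 1.80) for IgG. The enrichment at high glucose minus that at low glucose was 0.22 (-1.31 to 1.71), an interval that holds both a 2-fold gain and a 2-fold loss. Chromosome 10 as a whole had high enrichment, with medians of 1.23 and 1.30 over its 139 regions at high and low glucose, and its IgG medians of 15.8 and 11.6 scaled reads per kb were close to the 15.7 and 11.3 of the TCF7L2 region. The nearest other regions were 693 kb before it, closest to the acyl-CoA synthetase gene ACSL5, and 1450 kb after it, closest to ABLIM1, an actin-binding LIM protein gene. Both were more enriched than TCF7L2, at 2.42 (1.62 to 3.32) for ACSL5 and 2.23 (1.28 to 3.31) for ABLIM1 at high glucose, and at 4.22 (2.60 to 6.54) and 1.62 (0.42 to 2.98) at low glucose. Each of these intervals overlapped that of TCF7L2 at the same glucose level, and the ACSL5 value at low glucose rests on 3 IgG reads.

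TCF7L2 has several promoters, and 3 were listed by RefSeq (GRCh38.p14). They are shown because HNF4A and TCF/LEF factors read motifs with the same 5 letters: CAAAG is part of an HNF4A motif, CAAAGTCCA, and of a TCF/LEF motif, ATCAAAG. All 3 motifs were searched on both strands in the 250 bases before each start. The first promoter held none of them and had a GC share of 68%, against a median of 58% over all 35116 promoters. The second held CAAAG 3 times and the third once, and the longer motifs were in neither. Of all promoters of that length, 42.1% hold CAAAG, 2.26% hold ATCAAAG and 0.325% hold CAAAGTCCA, where each longer match is also a CAAAG match. The HNF4A region above is placed in hg19 and was not matched to these promoters, and its own sequence was not used here. Coordinates of the 2 promoters shown are GRCh38.p14. Capitals mark CAAAG or its reverse complement CTTTG, plus strand, 5′ to 3′.
TCF7L2 promoter 2 (chr10:113126383-113126632): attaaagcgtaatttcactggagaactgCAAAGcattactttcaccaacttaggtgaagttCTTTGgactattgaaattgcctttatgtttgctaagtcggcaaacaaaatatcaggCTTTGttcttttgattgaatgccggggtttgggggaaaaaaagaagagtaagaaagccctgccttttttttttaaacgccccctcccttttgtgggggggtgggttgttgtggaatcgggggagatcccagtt
TCF7L2 promoter 3 (chr10:113129021-113129270): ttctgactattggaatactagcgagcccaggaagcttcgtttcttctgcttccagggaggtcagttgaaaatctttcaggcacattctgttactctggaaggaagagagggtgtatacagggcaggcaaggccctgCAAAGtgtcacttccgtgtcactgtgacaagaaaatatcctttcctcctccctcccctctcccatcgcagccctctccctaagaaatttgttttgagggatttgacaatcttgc

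BCL9L encodes a paralog of BCL9 that links beta-catenin to Pygopus proteins. Its 2 regions lay on chromosome 11, from 118779586 to 118783893 (4308 bp) and from 118787886 to 118789744 (1859 bp), with 3.99 kb between them. The first held 189 HNF4A and 94 IgG reads at high glucose, and 127 and 67 reads at low glucose. The second held 168 HNF4A and 40 IgG reads at high glucose, and 116 and 29 reads at low glucose. Both regions had about as much IgG per length, at 22.0 and 21.7 scaled reads per kb at high glucose and 15.8 and 15.9 at low glucose. HNF4A per length was higher in the second, at 82.3 against 39.9 at high glucose and 62.4 against 29.5 at low glucose. Its HNF4A level ranked 235th and 273rd of 5326 regions.

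Enrichment in the first BCL9L region was 0.86 (0.50 to 1.23) at high glucose, against 0.90 (0.46 to 1.35) at low glucose. In the second it was 1.92 (1.42 to 2.46) at high glucose, against 1.97 (1.38 to 2.61) at low glucose. The second exceeded the first by 1.06 (0.42 to 1.71) at high glucose and by 1.08 (0.31 to 1.86) at low, both on the log2 scale. The first is the longer of the 2 regions, and a value over a long region averages over all of its length. Whether length bears on the gap between the 2 regions was not tested. Between glucose levels the BCL9L regions had close values. The HNF4A glucose ratio was 0.44 (0.11 to 0.77) in the first and 0.40 (0.05 to 0.75) in the second, and that of IgG was 0.47 (0.01 to 0.95) and 0.45 (-0.28 to 1.19). Enrichment at high minus low glucose was accordingly -0.03 (-0.62 to 0.55) and -0.05 (-0.88 to 0.77). With 357 HNF4A reads over both regions at high glucose and 243 at low glucose, BCL9L had the most reads of the 4 genes. Of the 7 regions of other genes within 1 Mb of the second BCL9L region, 1 was more enriched at each glucose level, and their median enrichment was 0.54 at high and 0.81 at low glucose.

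AXIN2 encodes a scaffold of the destruction complex that limits Wnt signalling as a feedback inhibitor. Its 2 regions lay on chromosome 17, from 63543043 to 63543832 (790 bp) and from 63580950 to 63582037 (1088 bp), with 37.1 kb between them. The first held 42 HNF4A and 12 IgG reads at high glucose, and 34 HNF4A and 4 IgG reads at low glucose. The second held 74 HNF4A and 21 IgG reads at high glucose, and 29 HNF4A and 16 IgG reads at low glucose. At high glucose their enrichment was nearly equal, at 1.66 (0.71 to 2.72) and 1.67 (0.96 to 2.44). At low glucose they parted, at 3.06 (1.57 to 5.02) in the first and 0.83 (-0.10 to 1.81) in the second. The second was lower than the first by a log2 difference of -2.23 (-4.40 to -0.37) there. The high value of the first rests on 4 IgG reads, a level of 5.16 scaled reads per kb, which ranked 5065th of 5326 regions.

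Between glucose levels the AXIN2 regions also differed. The second had an HNF4A glucose ratio of 1.22 (0.58 to 1.89), the 167th highest of 5326, where IgG stood at 0.38 (-0.63 to 1.41). In the first, the glucose ratio was 0.17 (-0.52 to 0.87) for HNF4A, or -0.19 relative to the median of all regions, and 1.57 (-0.15 to 3.66) for IgG. The second exceeded the first by 1.05 (0.08 to 2.01) for HNF4A. Enrichment at high minus low glucose was -1.40 (-3.60 to 0.50) in the first and 0.84 (-0.40 to 2.06) in the second, and both intervals include 0. With both regions summed, the AXIN2 glucose ratio was 0.75 (0.29 to 1.21) for HNF4A, beside 0.71 (-0.14 to 1.59) for IgG. Summed enrichment was 1.67 (1.1 to 2.27) at high glucose, against 1.63 (0.88 to 2.43) at low glucose. The opposite differences of the 2 regions are not seen in the sum.

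The second AXIN2 region was not alone in its stretch of chromosome 17. The nearest region before the first lay closest to RGS9, a regulator of G protein signalling, 414 kb away, with an HNF4A glucose ratio of 1.28 (0.70 to 1.90). The nearest after the second lay closest to PRKCA, the protein kinase C alpha gene, 702 kb away, at 1.08 (0.48 to 1.71). IgG in those regions stood at 0.81 and 0.98. Of 9 regions of other genes within 1 Mb, 1 exceeded the second AXIN2 region in the HNF4A glucose ratio, and their median was 0.66, against 0.39 over the 358 regions of chromosome 17. The median IgG glucose ratio of those 9 regions was also above that of the chromosome, at 0.79 against 0.59.

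MYC encodes a transcription factor that drives growth and division. Its region lay on chromosome 8 from 128754906 to 128756047 and was 1142 bp long. It held 86 HNF4A and 14 IgG reads at high glucose, and 36 HNF4A and 18 IgG reads at low glucose. HNF4A was thus higher at high glucose and IgG was not, which among the 6 regions was seen at MYC. Enrichment was 2.47 (1.65 to 3.40) at high glucose, the highest of the 6 and the 342nd of 5326 regions. At low glucose it was 0.97 (0.12 to 1.88), close to the median of all regions. The glucose ratio was 1.12 (0.54 to 1.72) for HNF4A, the 229th highest, and -0.38 (-1.5 to 0.71) for IgG. Enrichment at high minus low glucose was 1.5 (0.23 to 2.77), the only one of the 6 such differences whose interval lay on 1 side of 0. The share of all regions with such an interval was not counted, so that call has no background to be read against.

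Background in the MYC region was below the median of its chromosome, by more at high than at low glucose. Its IgG level was 12.3 scaled reads per kb at high and 16.1 at low glucose, beside chromosome 8 medians of 29.2 and 20.7 over 346 regions. Its HNF4A level was 68.5 at high and 31.5 at low glucose, beside chromosome medians of 43.7 and 35.9. The nearest region after it lay closest to PVT1, a long noncoding RNA gene next to MYC, 107 kb away. Its enrichment was 0.98 (0.61 to 1.37) at high glucose and 1.44 (0.87 to 2.05) at low glucose, with an HNF4A glucose ratio of 0.80 (0.44 to 1.17). On the other side of MYC the nearest region was 1440 kb before it, closest to LOC101927657. That region was more enriched than MYC at both glucose levels. At high glucose it stood at 2.85 (1.36 to 4.81), resting on 4 IgG reads. With low glucose the value was 2.64 (0.87 to 5.04), resting on 3 IgG reads. Each interval overlapped that of MYC, and its HNF4A glucose ratio was lower, at 0.62 (-0.25 to 1.52). Of 9 regions of other genes within 1 Mb, none exceeded MYC in enrichment at high glucose or in the HNF4A glucose ratio, and 4 were more enriched at low glucose. Their median enrichment was 1.38 at high glucose, against 0.74 at low glucose. Their median glucose ratio was 0.71 for HNF4A and 0.21 for IgG, against 0.37 and 0.46 over the regions of chromosome 8.

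**Figure D2:**
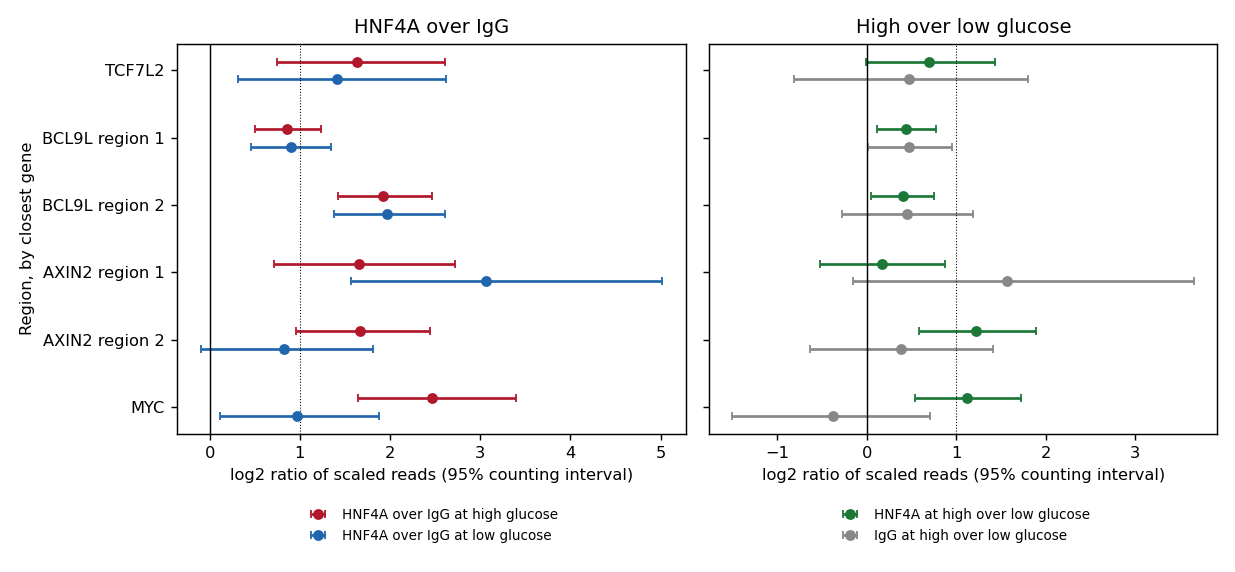
Points are log2 ratios of scaled reads for the 6 regions and bars their exact 95% counting intervals, with 1 library per group. The solid line marks no difference and the dotted line 2-fold. The left panel gives HNF4A over IgG at each glucose level, where AXIN2 region 1 at 3.06 rests on 4 IgG reads, and the right panel gives high over low glucose for each antibody, where MYC stands at 1.12 for HNF4A and -0.38 for IgG.

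Side by side, the HNF4A glucose ratio was above 0 in 6 of 6 regions, against 81.8% of all regions. It was above the median of all regions in 5 of 6, all but AXIN2 region 1. In AXIN2 region 2 and MYC it reached 2-fold, 2 of 6, against 6.78% of all regions. Relative to the median of all regions neither did, and the share of all regions at that centred limit was not counted. The interval of the HNF4A glucose ratio lay above 0 in 4 of 6, against 25.8% of all regions, and TCF7L2 and AXIN2 region 1 were the exceptions. Of those 4, both BCL9L regions, at 0.44 and 0.40, had intervals that include the median of all regions, 0.36. The intervals of AXIN2 region 2 and MYC lay above that median, and the share of all regions with such an interval was not counted. The IgG glucose ratio was above 0 in 5 of 6, against 77.9% of all regions, and above the median of all regions in AXIN2 region 1 alone. It reached 2-fold in 1 of 6, against 19.4% of all regions, and that was AXIN2 region 1. The IgG interval lay above 0 in 1 of 6, BCL9L region 1, against 26.2% of all regions. The members' median was 0.57 for HNF4A and 0.46 for IgG.

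The order of the members by HNF4A glucose ratio was AXIN2 region 2, MYC, TCF7L2, BCL9L region 1, BCL9L region 2 and AXIN2 region 1. Intervals of neighbours in that order overlapped in every case. For 3 of 6, enrichment at high minus low glucose was above 0, against 41.7% of all regions. That count was 5 relative to the median of all regions, and also 5 with no library scaling, since both BCL9L regions lay close to 0. MYC was the 1 member with a difference of 1 or more, which 8.49% of all regions reached. AXIN2 region 1 was the 1 member at -1 or less, a limit passed by 11.9% of all regions. Enrichment and the glucose ratio share the HNF4A libraries, so a high count in the HNF4A library at high glucose raises both.

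**Figure D3:**
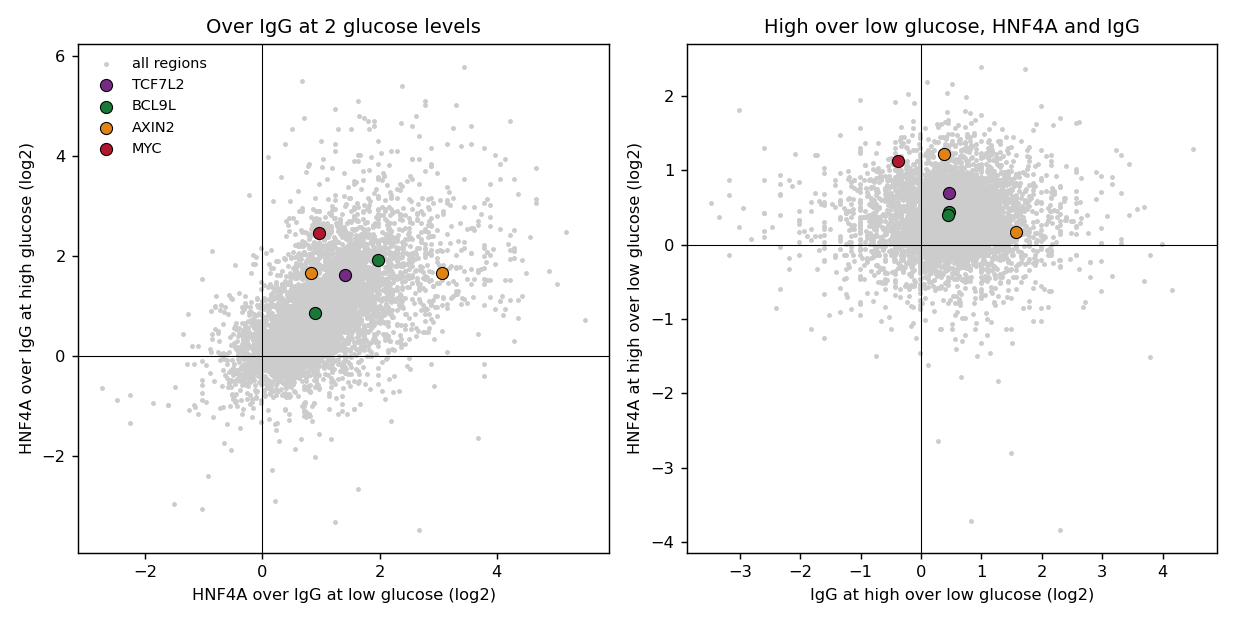
Grey points are all 5326 regions and coloured points the 6 regions by closest gene. In the left panel the x axis is enrichment (log2) at low glucose and the y axis that at high glucose. In the right panel the x axis is the glucose ratio (log2) of IgG and the y axis that of HNF4A, where AXIN2 region 1 lies to the right at 1.57 and MYC to the left at -0.38.

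The authors' deposited tables give each region a p-value and a false discovery rate (FDR) over all regions. In the authors' deposited table for high glucose, BCL9L region 2 (p = 0.0160) and MYC (p = 0.0236) had an unadjusted p under 0.05 above IgG, 2 of 6 members against 4.96% of all regions. For low glucose, the authors' deposited table held BCL9L region 2 (p = 0.0167) and AXIN2 region 1 (p = 0.0474), 2 of 6 against 3.04%. In the authors' deposited table between glucose levels they were AXIN2 region 2 (p = 0.0362) and MYC (p = 0.0442), 2 of 6 against 4.39%. The members' FDR in the authors' deposited tables ran from 0.865 to 0.880 over IgG at high glucose, from 0.820 to 0.822 at low glucose and from 0.914 to 0.972 between glucose levels. The lowest FDR of any region in those 3 tables was 0.173, 0.820 and 0.914.

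For the rest of the pathway, a list of 111 Wnt genes grouped by role was used, 107 without the 4 genes. Of those 107 genes, 26 had a region, 38 regions in all. The list holds 17 secreted and membrane inhibitors, such as the DKK and SFRP proteins, and none of them was closest to a region. The share of all genes that had a region was not counted, so neither count has a background to be read against. HNF4A exceeded IgG in 35 of the 38 at high glucose, beside 84.2% of all regions, and in 36 at low glucose, beside 91.5%. It was at least 2-fold higher in 19 of 38 at high glucose, or 50% against 41.6% of all regions, and in 21 at low glucose, or 55.3% against 46.8%. The median enrichment was 0.97 and 1.16, against 0.79 and 0.94 over all regions. The HNF4A glucose ratio was above 0 in 32 of 38, beside 81.8% of all regions, and reached 2-fold in 4, or 10.5% against 6.78%. The IgG glucose ratio reached 2-fold in 7, or 18.4% against 19.4% of all regions. The list's median was 0.50 for each antibody, against 0.36 for HNF4A and 0.51 for IgG over all regions.

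Among Wnt ligands, WNT3 held 111 HNF4A and 27 IgG reads at high glucose and 50 and 19 at low glucose. Its enrichment was 1.89 (1.28 to 2.56) at high glucose, and its HNF4A glucose ratio was 1.01 (0.52 to 1.53). WNT5B, a ligand best known for signalling without beta-catenin, was lowest of the 6 ligand regions in both, at 0.06 (-0.59 to 0.70) and -0.17 (-0.79 to 0.45). Of the receptors, LGR4, an R-spondin receptor, had the highest enrichment at high glucose, 4.81 (2.22 to 10.16), from 31 HNF4A reads and 1 IgG read as listed, where a listed 1 can be 0. LRP6, the coreceptor of Frizzled, was lowest at 0.35 (-0.11 to 0.81). In the HNF4A glucose ratio, LGR4 at 0.82 (-0.10 to 1.79) and LRP6 at 0.19 (-0.25 to 0.63) were again the ends.

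Of the destruction complex, CSNK1A1, the casein kinase that first phosphorylates beta-catenin, was the most enriched at high glucose, at 1.75 (0.77 to 2.86), just above both AXIN2 regions. BTRC, the ubiquitin ligase subunit that recognises phosphorylated beta-catenin, had the lowest region of this role at -1.28 (-3.16 to 0.36), from 5 HNF4A and 11 IgG reads. Its other region stood at 1.18 (-0.07 to 2.57). The second AXIN2 region was the highest of this role in the HNF4A glucose ratio, and the same BTRC region the lowest at -1.62 (-3.45 to -0.07), with the other BTRC region at 0.73 (-0.40 to 1.94). Of nuclear factors, the corepressor TLE3 was the most enriched at high glucose, at 2.94 (1.88 to 4.21), and 1 of the 3 regions of BCL9, the paralog of BCL9L, was lowest at 0.22 (-0.34 to 0.80). TLE1 led this role in the HNF4A glucose ratio at 1.30 (0.64 to 1.99), above TCF7L2 and BCL9L, and 1 of the 3 regions of CTNNB1, the beta-catenin gene, was lowest at 0.04 (-0.48 to 0.56).

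Among target genes, EPHB2, an ephrin receptor gene, had a higher enrichment than MYC at high glucose, 5.02 (2.45 to 10.37), from 36 HNF4A reads and 1 IgG read as listed. Its HNF4A glucose ratio of 1.23 (0.30 to 2.23) was near that of MYC. BIRC5, the survivin gene, was least enriched at high glucose, at -0.33 (-1.09 to 0.42). TBX3, a T-box factor gene, had the lowest HNF4A glucose ratio of this role in 1 region, at -0.49 (-1.07 to 0.09), and its other region stood at 0.68 (-0.22 to 1.63).

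**Figure D4:**
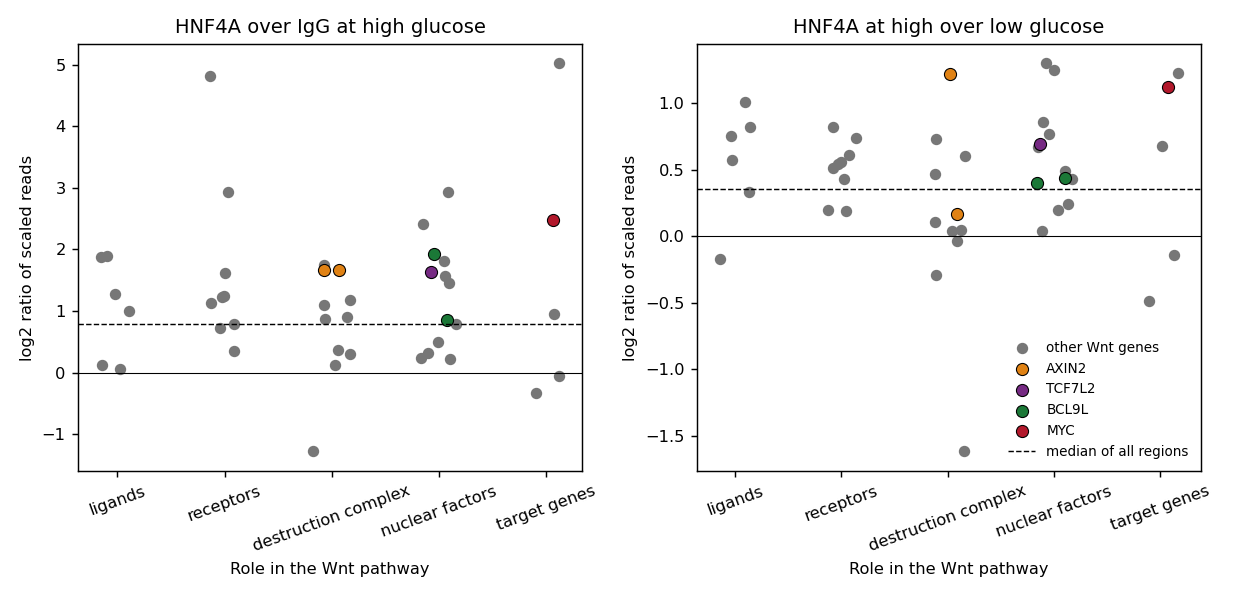
Points are all 44 regions of the Wnt list by role, with AXIN2, BCL9L, TCF7L2 and MYC coloured and the other genes grey. The y axes are log2 ratios of scaled reads, enrichment at high glucose on the left and the HNF4A glucose ratio on the right, and points are spread sideways for legibility. The dashed lines are the medians of all regions, 0.79 and 0.36, and the 4 genes lie within the range of the other Wnt genes in both panels.

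For each of the 4 genes, the 2 other genes whose 4 read values were most like those of its region with the most reads were taken among regions with at least 129 reads in all, the median of all regions. AXIN2 region 1 and BCL9L region 2 were thus not matched. Likeness is the distance between log2 scaled reads over 4 libraries after removing each region's mean, and a low value means a like pattern. For AXIN2 region 2 they were NRP1 at 0.147 and ARHGAP35 at 0.148. For BCL9L region 1 they were LRRC6 at 0.0525 and FAM195B at 0.0625. For TCF7L2 they were TMEM177 at 0.0194 and EML6 at 0.100, and for MYC RHOU at 0.111 and C12orf74 at 0.145. The matched RHOU region held 84 HNF4A and 13 IgG reads at high glucose and 35 and 16 at low glucose, beside 86, 14, 36 and 18 at MYC. A gene was matched by 1 region, and its other regions can differ. Enrichment at high glucose was 2.55 in the matched RHOU region, against -0.637, 2.085 and 1.138 in other RHOU regions. It was 1.48 in the matched NRP1 region, against 3.176 in another.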

How the data were processed

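ChIP-seq was done in HCCLM3 cells with HNF4A or IgG antibodies at high and low glucose, 1 library per group. Per the submitters' processing notes, the tools included Bowtie 1.1.2, MACS, DiffBind and HOMER, with build hg19. Tool settings were not given in these sources. The authors deposited 3 comparison tables over the same 5326 regions, with log2 levels, a log2 fold, a p-value and an FDR per region, per the file headers. The rule that picked the regions is unknown. If it used these reads, part of an excess over IgG would be built in.

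Without the log, 100% of the deposited levels were whole multiples of 1 step per library, within 0.01, which gave the reads and relative library sizes (1.1, 0.993, 1 and 0.982 for HNF4A and IgG at high glucose, then HNF4A and IgG at low glucose). Total depth is unknown. Over the regions HNF4A had 402237 reads and IgG 249744 at high glucose, and 295460 and 198683 at low glucose. Tables were joined on chromosome, start and end. Closest gene names differed between tables in 20 regions, none of them a member. Intervals on ratios are Clopper-Pearson, and those on differences of ratios are exact conditional odds ratio intervals (scipy 1.17.1). No model or test of conditions was run, since 1 library per group leaves no replicate error.

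The 6 regions, the Wnt list and the motifs were chosen with earlier results of these data known. Named genes are every region of the 4 genes, the highest and lowest region of each role in the Wnt list over IgG at high glucose and between glucose levels, and the 2 genes most like each of the 4 genes, taken from its region with the most reads. Genes of neighbouring regions were added outside that rule, after values were seen. Alternatives were median centring, no library scaling, 0.5 reads added, summed regions of a gene, and 1.5-fold and 3-fold limits.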

Additional observations from a re-analysis of the deposited data

Results flagged for a closer look

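In the MYC region the glucose ratio had opposite signs for HNF4A, at 1.12, and IgG, at -0.38, a difference of 1.5 between the ratios over IgG. Opposite signs of this kind were seen in 13 of the 38 other Wnt regions and in 30.5% of all regions. Among the regions given above with values, the differences between the ratios over IgG at high and low glucose were 3.16 at LGR4, 2.24 at EPHB2, 0.86 at CSNK1A1, -0.67 at WNT5B and -0.93 at 1 TBX3 region. The BTRC region with the lowest value, at -1.74, and BIRC5, at -0.89, also had HNF4A below IgG at high glucose and above it at low glucose, as did the other TBX3 region, at -0.52. That pattern was seen in 11.8% of all regions, and the other BTRC region, at 0.55, did not have it. Among further regions of the genes named above, 1 of CTNNB1 and 1 of BCL9 also had glucose ratios of opposite sign, with differences of 1.37 and 0.72. Each of these differences rests on 1 library per group, and whether they exceed replicate error was not tested. EPHB2 and LGR4 were each listed at 1 IgG read at high glucose.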

How the results depend on the processing

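No paired analysis was possible because each group has 1 library, and no replicate could be left out. Main counts are those of the report, of 6 member regions and of 38 other Wnt regions. Shares of all regions were not counted under the alternatives, so the counts below show only how far each one moves. Centring on the median of all regions moved members at least 2-fold over IgG at high glucose from 5 to 2, members at least 2-fold higher for HNF4A between glucose levels from 2 to 0, members with IgG higher at high glucose from 5 to 1, and members with a higher ratio over IgG at high glucose from 3 to 5. The last count was also 5 with no library scaling. For the other Wnt regions, centring gave 8 at high glucose, 5 at low glucose, 0 for HNF4A and 0 for IgG between glucose levels. With a 1.5-fold limit, 6 members were above IgG at low glucose, where the median enrichment of all regions, 0.94, also passes that limit. At that limit 2 members had a higher ratio over IgG at high glucose. The list then had 15 for HNF4A and 14 for IgG between glucose levels. With a 3-fold limit no member passed between glucose levels, with 0 for HNF4A, 0 for IgG and 0 for the difference of ratios. The list then had 10 and 12 over IgG at high and low glucose, and 0 for HNF4A and 0 for IgG between glucose levels. With the regions of a gene summed, 1 of the 4 genes, MYC, was at least 2-fold higher for HNF4A between glucose levels. For IgG 0 of the 4 genes were, 3 were higher, and the list had 4 of its 26 other genes with a region. These are counts of genes, not of the 6 and 38 regions. Subtracting IgG, added after the data were seen, gave 10 list regions at least 2-fold higher between glucose levels and moved MYC from 1.12 to 1.86, AXIN2 region 2 from 1.22 to 1.86 and AXIN2 region 1 from 0.17 to -0.20. The other 52 count results stayed within 1.5 times, and of 96 single values 85 stayed within their counting interval. Those that did not came with median centring, apart from MYC with IgG subtracted. Over IgG they were AXIN2 region 2 and both BCL9L regions at each glucose level, and MYC at low glucose. Between glucose levels they were both BCL9L regions for HNF4A and BCL9L region 1 for IgG. Few reads limit single regions, such as AXIN2 region 1 with 4 IgG reads at low glucose.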
